A study of Drosophila melanogaster with 12 samples.

Results

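Whole adult *Drosophila melanogaster* females reared on a protein-rich diet were compared with females reared on the control diet. The protein-to-carbohydrate (P:C) ratio was 0.7 in the former, called the 0.7 diet here, and 0.4 in the latter. The comparison used the 6 samples that carry these diets in their labels, 3 per diet, out of the 12 samples of the series. All flies came as eggs from one large outbred baseline population, which had been kept on the control diet, and were raised on their diet in constant light at 25°C. The diets held the same calories, and yeast replaced sugar to raise the ratio. Each sample pooled 12 females frozen on day 13 post egg collection, so that both diets share the day counted from the egg, while the time since emergence as an adult is not given in the labels. The methods describe the samples of a diet as separate biological replicates. The purpose was to see how gene expression changes with the P:C ratio when calories are held constant.

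The adult fly digests food in the midgut, where enterocytes secrete serine proteases of the trypsin and Jonah families, present aminopeptidases and transporters on their surface, and release amylase and maltases that cut starch and disaccharides. A chitin and mucin sleeve, the peritrophic matrix, separates the food from these cells. The fat body stores lipid and secretes proteins into the haemolymph, and adipokinetic hormone, the counterpart of glucagon, calls on these stores. In females, the ovary makes up a large part of the body and its RNA.

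RNA was sequenced after polyA enrichment, and the deposited raw counts were summed to between 6094226 and 13245114 per sample over 15448 transcripts. Expression is given as CPM, the share of a library's counts on the usual CPM scale after TMM scaling over the 6 samples, and 3 counts of a total, taken as the limit of detection, lay between 0.217 and 0.477 CPM. This limit covers counting error only. As a check of the labels, yolk protein Yp1-RB, which overlaps CR45601-RA, had 21389.5, 20788 and 22499 CPM in the control samples and 17900.3, 15353 and 20408 CPM on the 0.7 diet, and the most abundant of 23 male accessory gland and testis transcripts, Acp95EF-RA, which overlaps Spase22-23-RB, had a mean of 0.415 CPM and 0.376 CPM. None of the 23 male transcripts passed the filter on low counts.

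Of 9705 transcripts tested with edgeR, 371 were lower and 56 higher on the 0.7 diet (called DE here where the adjusted p was under 0.05 and the change over 1.5-fold), which is a background of 3.82% of tested transcripts for lower and 0.577% for higher. Without the fold minimum, 640 were lower (6.59%) and 248 were higher (2.56%). At an unadjusted p under 0.05 there were 3183. The median log2 fold change was -0.76 among the lower transcripts, 0.73 among the higher and 0.00 over all tested transcripts, of which 49.6% were below 0. A change of more than 2-fold was fitted for 77 of the lower and 21 of the higher transcripts. Among the 371 lower transcripts, 368 had each control sample above each sample of the 0.7 diet. All 56 higher transcripts had each control sample below each sample of the 0.7 diet. Such a gap was thus shared by nearly all called transcripts and does not mark those named below as stronger. The calls were made on the same values, so that the gap is no separate support for them, here or below. Its share over all tested transcripts is not given. Scaling by library size alone gave 302 lower and 109 higher transcripts, so that the share that was higher moved from 13.1% to 26.5%. DE transcripts were spread over the chromosome arms: between 3.55% and 4.17% of the tested transcripts of the arms 2L, 2R, 3L, 3R and X were lower, and between 0.431% and 0.875% were higher.

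The number of calls depended on single samples. Without replicate 1 or 3 of the control diet, 68 and 61 transcripts were lower, and without replicate 1 or 2 of the 0.7 diet, 43 and 82. Without replicate 2 of the control diet or replicate 3 of the 0.7 diet, 709 and 695 were lower. The higher calls ran from 3, without replicate 1 of the 0.7 diet, to 153, without replicate 2 of the control diet. Only 32 of the lower and 0 of the higher transcripts passed in all 6 of these fits. Strand-specific counting is not stated in the sources used here, and 33.2% of the lower and 32.1% of the higher transcripts overlap another transcript of the table, against 46.1% of all tested. Reads of such partners cannot be told apart, so the partner is named.

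**Figure D1:**
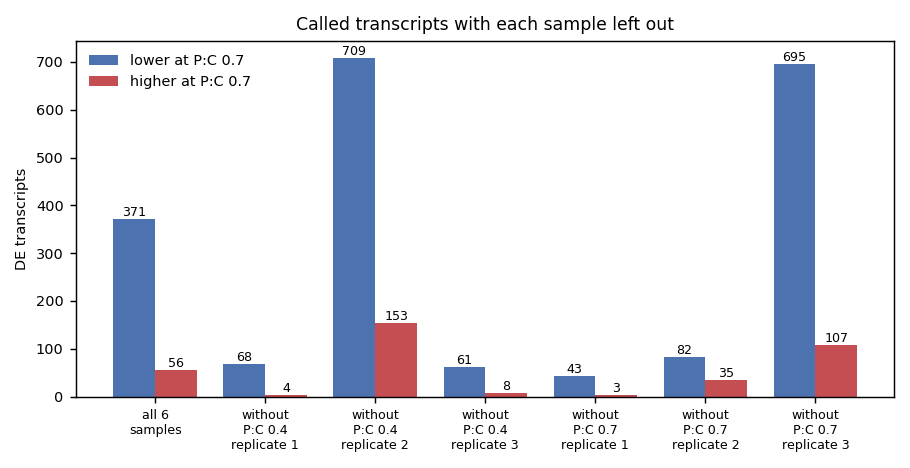
Number of transcripts DE between the 0.7 diet and the control diet, with all 6 samples and with each sample left out in turn. Blue bars count lower and red bars count higher transcripts, and the lower count runs from 43 to 709.

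The transcripts were read through 38 lists of functions and tissues, which held 1022 transcripts of the table, 817 of them tested. All lists were chosen with earlier results of these data known, so that none of their shares is independent of them. At least 1 member was lower in 28 of the lists and higher in 6, and 249 of the 371 lower and 40 of the 56 higher transcripts belonged to no list. Shares of lower members below stand against 3.82% of all tested transcripts, and shares of higher members against 0.577%. The largest shares of lower members were found among sarcomere proteins, transcripts of the sperm storage organs and Malpighian tubule, neuronal activity genes, and the digestive proteases. Positive medians were found for heat shock proteins, with each near-identical Hsp70 copy counted separately, amylases and maltases, mitosis genes and germline genes.

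**Figure D2:**
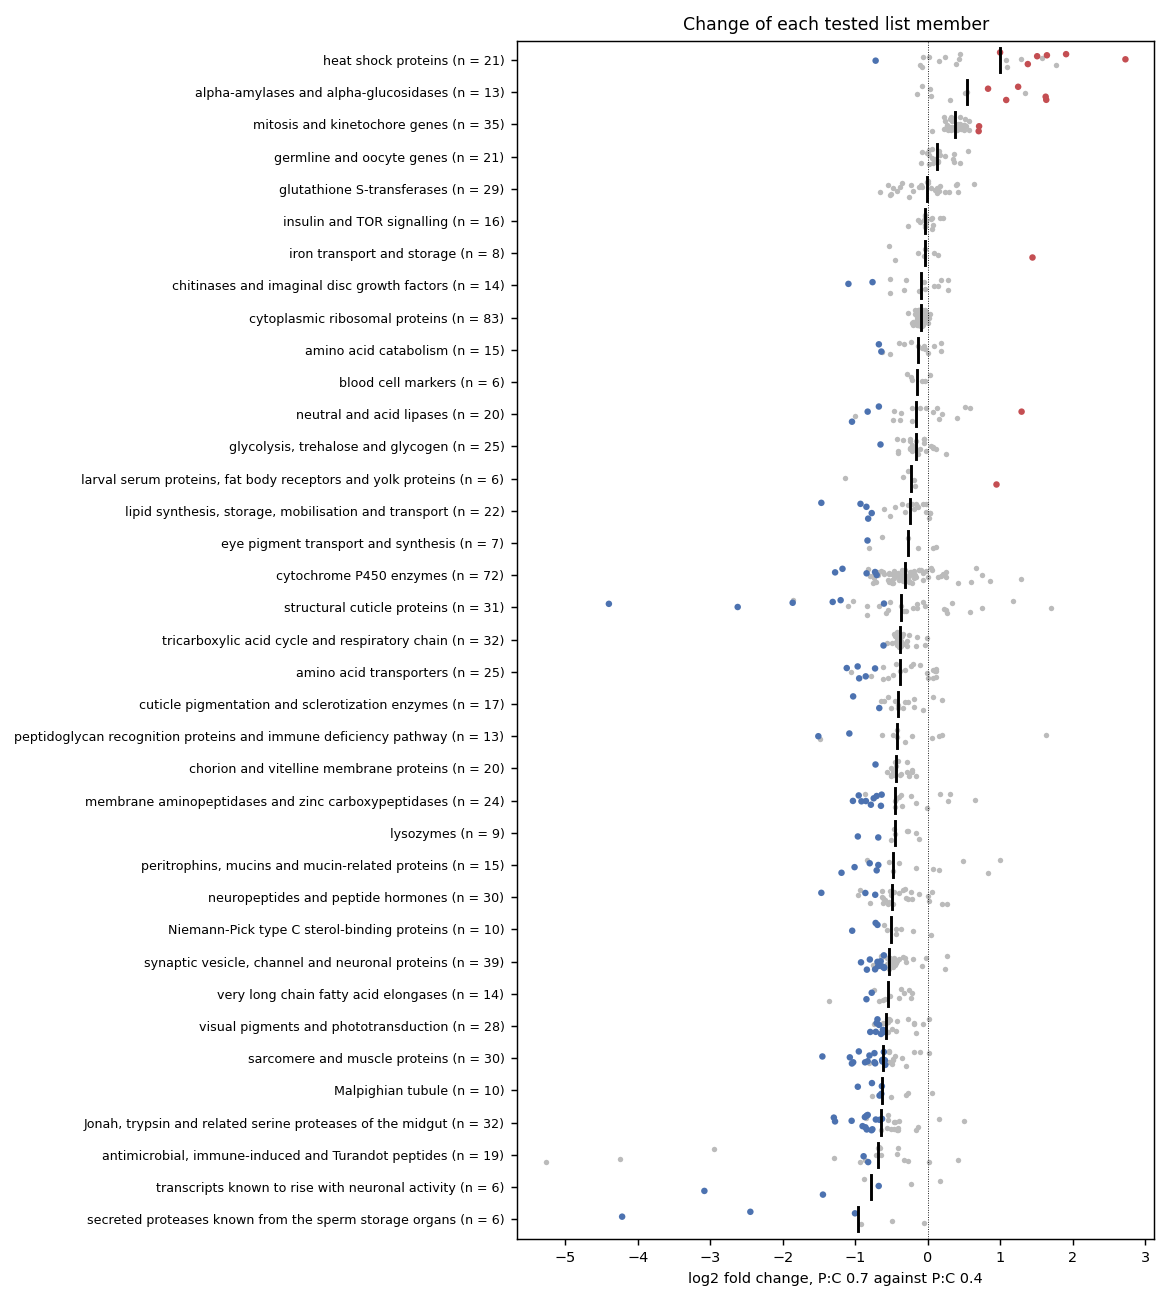
Log2 fold change of every tested member of each list (points, with the number tested in brackets), with the list median as a black bar. DE members are blue where lower and red where higher, and grey points did not pass. Lists are ordered by their median, from heat shock proteins (1.0, with each Hsp70 copy counted separately) to the sperm storage organs (-0.96).

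Endoproteases of the midgut were lower. Of 33 Jonah, trypsin and related serine proteases in the table, 32 were tested, and 14 of these (43.8%, against 3.82% of all tested transcripts) fell and 0 rose, with a list median of -0.64. The summed level of the list was between 22207 and 26004 CPM in the control samples and between 14140 and 17297 CPM on the 0.7 diet. Jon65Aiv-RA, a chymotrypsin-like Jonah protease and one of the most abundant lower transcripts (chromosome 3L, 6039155 to 6040135), had 2953, 2998 and 3521 CPM in the control samples and 1562, 1909 and 2107 CPM on the 0.7 diet. No sample of one diet reached the other, and the log2 fold change was -0.76 (SE 0.11, adjusted p = 0.0131 from edgeR). The largest change in this list was that of thetaTry-RA, a trypsin, with 243, 180.3 and 309.7 CPM against 73.8, 108 and 115 CPM. Its log2 fold change was -1.30 (SE 0.20, adjusted p = 0.0132 from edgeR), and it passed in 4 of the 6 fits with a sample left out. CG30025-RA and deltaTry-RA, the latter overlapping CG13202-RA, belong to a cluster of trypsins with near-identical coding sequences, between which reads may have been shared. CG30025-RA had 23.9, 25.1 and 44.05 CPM on the control diet and 6.68, 16.7 and 13.7 CPM on the other, a log2 fold change of -1.28 (SE 0.31), and deltaTry-RA fell by 1.05 on the log2 scale (SE 0.28). These 2 passed in only 2 and 1 of the 6 fits. Of the Jonah proteases, Jon65Aii-RA, Jon65Aiii-RA, Jon65Aiv-RA and Jon99Fi-RA passed in all 6. The number of lower members ran from 4, without replicate 1 of the 0.7 diet, to 18, without replicate 2 of the control diet, and none was higher in any of these fits. In whole flies, fewer cells of a type and less RNA per cell cannot be told apart, here and for each tissue below.

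Most enzymes that trim peptides from their ends followed the same direction. Of 24 tested membrane aminopeptidases and zinc carboxypeptidases, 9 (37.5%) fell and 0 rose, with a median of -0.46. CG31233-RB, an aminopeptidase of the M1 family, had 313, 321 and 363 CPM in the control samples and 187, 168 and 161 CPM on the 0.7 diet. The diets were separated by a wide gap, and with a log2 fold change of -0.95 (SE 0.08, adjusted p = 0.00209 from edgeR) it had one of the smallest adjusted p of the comparison and passed in all 6 fits. CG14820-RA, a zinc carboxypeptidase, had 20.9, 27.2 and 28.9 CPM against 12.6, 12.7 and 12.4 CPM, and its log2 fold change was -1.03 (SE 0.15, adjusted p = 0.00995 from edgeR). Another carboxypeptidase, CG7025-RA, had 15.7, 21.2 and 16.1 CPM against 9.86, 9.19 and 9.07 CPM. The remaining 6 were CG18417-RA, CG31198-RA, CG8773-RB, CG8774-RB, CG31343-RA and CG17633-RA, with log2 fold changes from -0.85 to -0.64. The count of lower members ran from 4, without replicate 3 of the control diet or replicate 1 of the 0.7 diet, to 9. Not all members fell: 4 of the 24 had a log2 fold change above 0, up to 0.65. Of these, 3 were higher at an unadjusted p under 0.05 from edgeR, and 1 member was called higher without replicate 2 of the 0.7 diet.

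Of 25 tested amino acid transporters, 5 (20%) fell and 0 rose, with a median of -0.39. The list was not limited to the gut and included the glutamate transporters Eaat1-RA and Eaat2-RA. The nutrient amino acid transporter NAAT1-RA had 29.996, 27.9 and 42.9 CPM in the control samples and 14.2, 17.8 and 19.97 CPM on the 0.7 diet. CG8785-RB had 25.8, 33.6 and 31.9 CPM against 17.02, 17.9 and 11.9 CPM, a log2 fold change of -0.97 (SE 0.17, adjusted p = 0.0198 from edgeR). Neither transporter showed an overlap between the diets, which held for nearly all called transcripts. List-RC, a lithium-inducible transporter of the SLC6 family that overlaps Hs3st-A-RB, was at 5.66, 6.0 and 9.36 CPM and 4.14, 2.32 and 3.57 CPM. The glutamate transporter Eaat2-RA and CG1698-RB, which overlaps another transcript, were the other lower members. The count ran from 0, without replicate 3 of the control diet or replicate 1 of the 0.7 diet, to 8, without replicate 3 of the 0.7 diet.

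Enzymes that digest carbohydrate were higher on this diet, which held less sugar. Of 13 tested alpha-amylases and alpha-glucosidases, 5 (38.5%, against 0.577% of all tested transcripts) rose and 0 fell, with a list median of 0.54, and only Mal-B1-RA and Mal-B2-RA had a log2 fold change below 0. The alpha-glucosidase tobi-RA, known as a target of brain insulin signalling and overlapping rha-RA, had 133, 63.2 and 120.1 CPM in the control samples and 342, 249 and 389 CPM on the 0.7 diet. Its lowest sample on the 0.7 diet lay above its highest control sample, with a log2 fold change of 1.63 (SE 0.25, adjusted p = 0.0132 from edgeR), and it passed in 5 of the 6 fits. The maltase Mal-A7-RB (chromosome 2R, 8468646 to 8471663) had 13.7, 7.26 and 12.02 CPM against 54.7, 19.2 and 31.6 CPM, a log2 fold change of 1.64 (SE 0.37, adjusted p = 0.0349 from edgeR). In Mal-A6-RD the values were 54.99, 22.9 and 61.4 CPM and 137, 81.98 and 117 CPM, so that control replicate 2 was the lowest sample and the diets did not overlap. Mal-A1-RA, which overlaps Cyp4e1-RA, rose by a log2 fold change of 1.08 (SE 0.24). The proximal amylase Amy-p-RB (chromosome 2R, 17118636 to 17120303), one of the 3 most abundant higher transcripts, had 432, 467 and 613 CPM against 1094, 679 and 924 CPM, a log2 fold change of 0.83 (SE 0.18, adjusted p = 0.0304 from edgeR). Its near-identical neighbour Amy-d-RA, with which reads may be shared, had a log2 fold change of 0.54 and an adjusted p of 0.0505 from edgeR, and was not called. A further 3 maltases, Mal-A2-RA, Mal-A3-RA and Mal-A5-RC, had log2 fold changes of 0.31, 0.04 and 0.03 and did not pass. The number of higher members ran from 0, without replicate 1 of the 0.7 diet, through 1 and 2, without replicates 1 and 3 of the control diet, to 6, without replicate 2 of the control diet, and was 3 in the fit of all 12 samples.

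**Figure D3:**
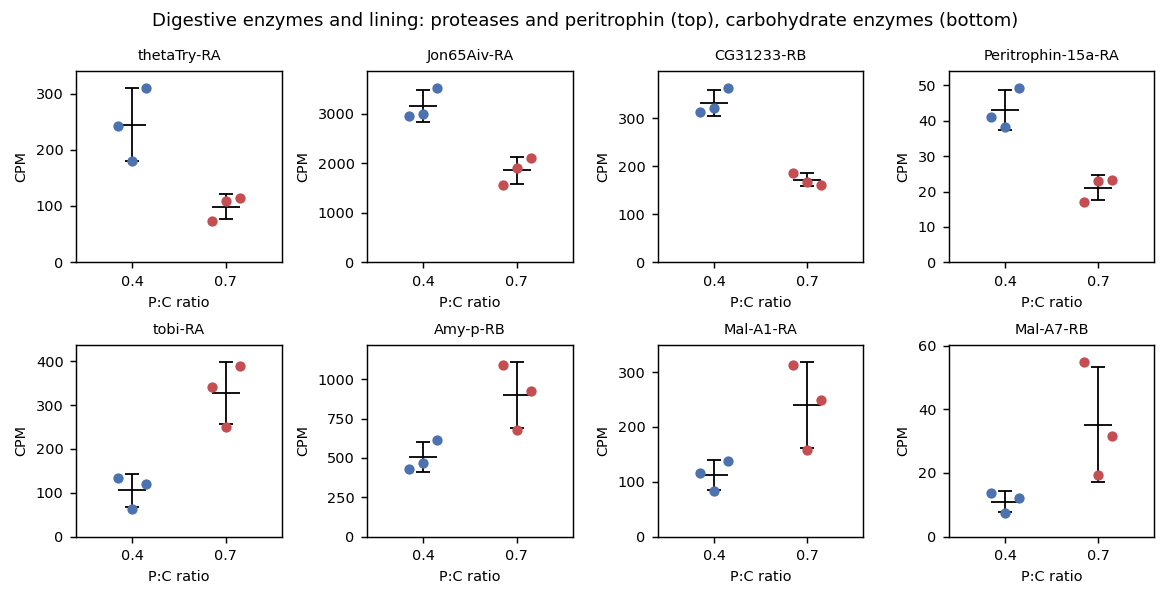
CPM of 4 protein-digesting or gut-lining transcripts (top row) and 4 carbohydrate-digesting transcripts (bottom row) in each sample of the control diet (P:C 0.4, blue) and the protein-rich diet (P:C 0.7, red), with the mean and SD of the 3 samples in black. The 2 diets do not overlap in any panel, and the direction differs between the rows.

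Fat-digesting enzymes were divided. Of 20 tested lipases, 3 (15%, against 3.82% of all tested transcripts) fell and 1 (5%, against 0.577%) rose, with a median of -0.16. CG17192-RA, a neutral lipase that overlaps RYa-R-RB, had 143, 107 and 108 CPM in the control samples and 53.8, 56.4 and 62.98 CPM on the 0.7 diet. It passed in all 6 fits, with a log2 fold change of -1.04 (SE 0.12, adjusted p = 0.00528 from edgeR). Lip4-RC fell by 0.83 on the log2 scale (SE 0.19). The higher one, the acid lipase CG8093-RB, had 12.9, 8.23 and 13.2 CPM against 37.1, 19.8 and 29.03 CPM. Its log2 fold change was 1.30 (SE 0.25, adjusted p = 0.0256 from edgeR), and it passed in 3 of the 6 fits. Without replicate 1 of the control diet 1 lipase was lower and 0 were higher.

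Several transcripts of the gut lining were lower. Among 15 tested peritrophins and mucins, 5 (33.3%) fell and 0 rose, with a median of -0.48. Peritrophin-15a-RA, a chitin-binding protein of the peritrophic matrix, had 41.2, 38.4 and 49.2 CPM in the control samples and 17.02, 22.9 and 23.3 CPM on the 0.7 diet. Its log2 fold change of -1.01 (SE 0.14, adjusted p = 0.0103 from edgeR) passed in all 6 fits. The mucin Muc68D-RB was even across the control samples, at 493, 489 and 496 CPM, and lower at 273, 237 and 339 CPM. Peritrophin-15b-RC, which overlaps CR45343-RA, was at 5.13, 3.21 and 5.09 CPM and 1.75, 2.39 and 1.64 CPM and passed in 1 of the 6 fits. The count ran from 1, without replicate 1 of the 0.7 diet, to 7, without replicate 2 of the control diet. Of 14 chitinases and imaginal disc growth factors, 2 (14.3%) fell, Cht9-RA, which overlaps CR44703-RA, by a log2 fold change of -1.09 and the growth factor Idgf1-RA, which overlaps CG5888-RA, by -0.76. The samples of Idgf1-RA overlapped between the diets, with 67.5, 43.3 and 69.6 CPM and 34.99, 28.1 and 43.9 CPM. Neither of the 2 was called without replicate 1 or 3 of the control diet or replicate 1 of the 0.7 diet.

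Sterols reach the fly only with food, and Niemann-Pick type C proteins bind and move them. Of 10 tested members, 3 (30%, against 3.82% of all tested transcripts) fell and 0 rose, with a median of -0.50. Npc2f-RA had 20.1, 15.9 and 23.6 CPM in the control samples and 10.97, 8.61 and 9.74 CPM on the 0.7 diet, a log2 fold change of -1.04 (SE 0.18, adjusted p = 0.0178 from edgeR). Npc1b-RA, the midgut member needed for sterol uptake, and Npc2h-RA had log2 fold changes of -0.72 (SE 0.19) and -0.69 (SE 0.16). None of the members passed without replicate 1 or 3 of the control diet or replicate 2 of the 0.7 diet.

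The transcript with the largest fall among those called, CG3264-RB (RefSeq symbol Alp8; chromosome 2R, 22208464 to 22210765), encodes an alkaline phosphatase. It had 19.998, 10.05 and 8.67 CPM in the control samples and 0, 0.362 and 0.579 CPM on the 0.7 diet, where it was at about the limit of detection. Its fitted log2 fold change of -5.12 (SE 0.54, adjusted p = 0.00418 from edgeR) is imprecise for that reason, and it passed in all 6 fits. CG3264-RB passed the filter on low counts through its control samples only, so that it could enter the test only as a candidate for a lower level. The alkaline phosphatase family, which removes phosphate groups at the cell surface, was looked up after the values had been seen. Of 10 alkaline phosphatases in the table, 8 were tested, all 8 had a log2 fold change below 0, and 4 (50%) were DE. CG3290-RA (Alp2) had 75.3, 56.8 and 46.6 CPM against 23.7, 17.4 and 22.2 CPM, a log2 fold change of -1.51 (SE 0.18, adjusted p = 0.00609 from edgeR), and passed in all 6 fits. CG10592-RA (Alp10) and Aph-4-RA (Alp4), the latter overlapping mir-4948-RM, had log2 fold changes of -0.61 and -0.66.

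Lysosomal alpha-mannosidases, a further family looked up after the values had been seen, moved in both directions. LM408-RB (LManII) had 363, 287 and 366 CPM in the control samples and 196, 175 and 203 CPM on the 0.7 diet, and its log2 fold change of -0.83 (SE 0.10, adjusted p = 0.00804 from edgeR) passed in all 6 fits. CG9463-RB (LManIII), its paralogue, had 4.21, 9.49 and 6.71 CPM against 19.7, 14.3 and 16.9 CPM, a log2 fold change of 1.31 (SE 0.26, adjusted p = 0.026 from edgeR), and passed in 3 of the 6 fits. Of the 6 members, CG5322-RB (LManI) also fell, while CG9465-RB, CG9466-RB and CG9468-RA had log2 fold changes of 0.94, -0.25 and 0.06 and did not pass. Without replicate 1 or 3 of the control diet or replicate 1 of the 0.7 diet 1 member was lower and 0 were higher. GATAe-RC, a GATA factor required for the identity of the midgut and named after its values were seen, had 7.89, 8.09 and 8.55 CPM against 11.6, 13.1 and 12.3 CPM, a log2 fold change of 0.60 (SE 0.15).

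Defence genes of the gut and fat body gave few calls. Of 9 tested lysozymes, which break down bacterial walls, 2 (22.2%, against 3.82% of all tested transcripts) fell. All 9 had a log2 fold change below 0, with a median of -0.46. LysP-RA, which overlaps mwh-RB, had 60.1, 65.4 and 65.5 CPM in the control samples and 33.2, 21.1 and 44.4 CPM on the 0.7 diet. CG6426-RA fell by 0.68 on the log2 scale (SE 0.14). Of 13 peptidoglycan recognition proteins and members of the immune deficiency pathway, 2 (15.4%) fell. PGRP-LF-RA, an inhibitory receptor of that pathway, which overlaps UGP-RE, had 10.7, 4.6 and 7.86 CPM against 2.54, 1.88 and 3.76 CPM, and PGRP-SC2-RA, an amidase that degrades peptidoglycan, had 48.3, 36.3 and 70.8 CPM against 29.1, 20.3 and 25.3 CPM. In both lists no member was lower without replicate 1 or 3 of the control diet or replicate 1 of the 0.7 diet. In the second list 1 member was higher without replicate 1 of the 0.7 diet, and 1 with DESeq2 or library size scaling. The member with the largest positive value, pirk-RB, an inhibitor of the pathway, had 5.26, 3.07 and 2.77 CPM against 4.29, 12.5 and 16.7 CPM, with overlapping samples and a log2 fold change of 1.63 (adjusted p = 0.0501 from edgeR).

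Of 19 tested antimicrobial, immune-induced and Turandot peptides, 2 (10.5%, against 3.82% of all tested transcripts) fell and 0 rose, although the list median was -0.68. Replicate 1 of the control diet stood apart in this list, with a summed level of 779 CPM against 362 and 408 CPM in the other control samples and 267 to 310 CPM on the 0.7 diet. The attacin AttA-RA had 68.8, 0.977 and 2.54 CPM in the control samples and 0.636, 1.81 and 0.965 CPM on the 0.7 diet, and the cecropin CecA1-RA was found only in control replicate 1, with 14.5 CPM. Without that sample the list median was -0.52. No member passed without it, without replicate 3 of the control diet, without replicate 1 or 2 of the 0.7 diet, or in the fit of all 12 samples, whereas 9 passed without replicate 2 of the control diet. Both called peptides were also higher in the other control samples than in any sample of the 0.7 diet. IM3-RB (RefSeq symbol BomS3), a short Bomanin peptide, had 123, 65.03 and 77.3 CPM against 47.9, 42.7 and 53.6 CPM, a log2 fold change of -0.88 (SE 0.21, adjusted p = 0.0373 from edgeR). TotA-RA, a Turandot stress peptide, had 15.5, 25.1 and 15.03 CPM against 11.9, 10.1 and 9.65 CPM and passed in none of the 6 fits. Blood cell markers did not pass: of 6 tested, 0 were DE with edgeR or DESeq2 (at an unadjusted p under 0.05, 1 lower and 0 higher), and the most abundant, Hml-RA, had 114, 111 and 106 CPM against 101, 74.2 and 109 CPM (adjusted p = 0.247 from edgeR).

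The hormone that mobilises stores and its downstream partners were lower. Akh-RA, which encodes adipokinetic hormone, had 3.68, 3.07 and 5.32 CPM in the control samples and 1.43, 1.23 and 1.74 CPM on the 0.7 diet, a log2 fold change of -1.47 (SE 0.32, adjusted p = 0.0327 from edgeR), although at these counts it passed in only 2 of the 6 fits. Its receptor AkhR-RC, on fat body cells, had 48.7, 38.2 and 49.4 CPM against 22.1, 26.2 and 28.4 CPM. Lsd-1-RC, the perilipin through which the hormone acts on lipid droplets and which overlaps CG10214-RA, had 196, 146 and 178 CPM against 90.3, 79.3 and 104 CPM. Its log2 fold change was -0.93 (SE 0.13, adjusted p = 0.00892 from edgeR), and it passed in 5 of the 6 fits. The second perilipin, Lsd-2-RF, had a log2 fold change of -0.16 (SE 0.08, adjusted p = 0.181 from edgeR).

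These transcripts belong to a list of 22 for lipid synthesis, storage, mobilisation and transport, all tested, of which 5 (22.7%) fell and 0 rose, with a median of -0.24. The lipid transfer particle Apoltp-RC and v(2)k05816-RB (RefSeq symbol FASN2), a fatty acid synthase of the oenocytes, were the other lower members. In v(2)k05816-RB the values were 353, 247 and 413 CPM and 172, 166 and 226 CPM, a log2 fold change of -0.85 (SE 0.18). The general synthesis enzymes did not pass and lay close to 0: the log2 fold change was 0.03 for the main fatty acid synthase CG3523-RA, 0.01 for acetyl-CoA carboxylase ACC-RC and 0.03 for ATP citrate lyase ATPCL-RE, the latter 2 overlapping other transcripts. The number of lower members ran from 0, without replicate 1 of the 0.7 diet, to 8, without replicate 3 of that diet. All 14 tested very long chain fatty acid elongases had a log2 fold change below 0, with a median of -0.55, and 2 of them (14.3%) fell. CG16904-RA had 212, 169 and 260.3 CPM against 113, 104 and 140.3 CPM, a log2 fold change of -0.85 (SE 0.16, adjusted p = 0.0225 from edgeR), and CG9458-RA had a log2 fold change of -0.77. The elongase count ran from 0, without replicate 1 or 3 of the control diet or replicate 1 or 2 of the 0.7 diet, to 8, without replicate 3 of the 0.7 diet.

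Among secreted proteins of the fat body, Tsf1-RC and Lsp2-RB were higher, each as the only higher member of its list. Tsf1-RC, the iron carrier of the haemolymph, had 246, 124 and 169 CPM in the control samples and 511, 332 and 616 CPM on the 0.7 diet. The diets did not overlap, and the log2 fold change was 1.43 (SE 0.26, adjusted p = 0.0216 from edgeR), with a pass in 4 of the 6 fits. It was the only one of 8 tested iron genes to pass (12.5%, against 0.577% of all tested transcripts), and 0 passed without replicate 3 of the control diet or replicate 1 of the 0.7 diet. The ferritin chains Fer1HCH-RD and Fer2LCH-RA, which overlap each other, had log2 fold changes of -0.05 and -0.13. Lsp2-RB, a larval serum protein, had 507, 641 and 488 CPM against 1265, 818 and 1072 CPM, a log2 fold change of 0.95 (SE 0.16, adjusted p = 0.0162 from edgeR). It was the only higher one of 6 tested storage and yolk proteins (16.7%). The other 5 had a log2 fold change below 0, down to -1.14, with 0 called lower and a list median of -0.23. The summed level of this list was 55921 to 58522 CPM in the control samples and 41747 to 53821 CPM on the 0.7 diet. Lsp2-RB did not pass without replicate 1 or 3 of the control diet, without replicate 1 of the 0.7 diet, or in the fit of all 12 samples. CR11538-RC (chromosome 3L, 12129103 to 12131488) is annotated on the opposite strand of the same stretch and had nearly the same counts, so reads of these 2 of the 3 most abundant higher transcripts cannot be told apart. The yolk proteins, made by fat body and ovary, did not reach a 1.5-fold change: the log2 fold changes of Yp1-RB, Yp2-RB and Yp3-RB were -0.27, -0.34 and -0.19.

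**Figure D4:**
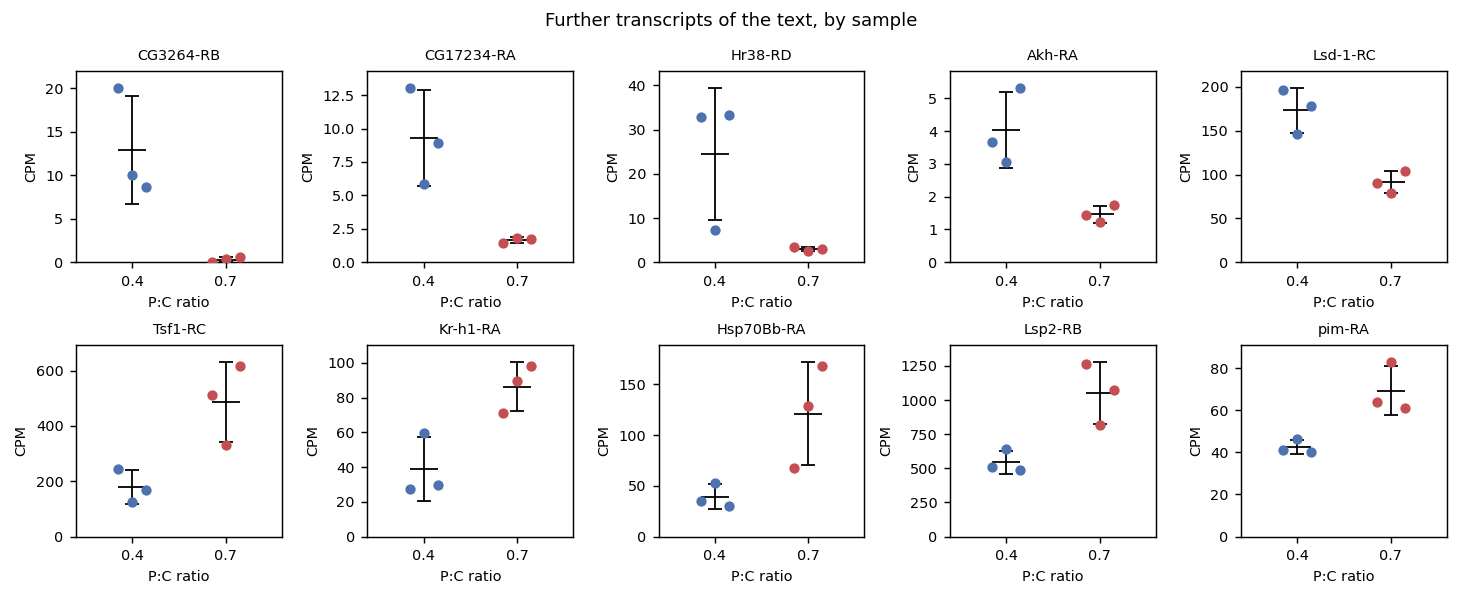
CPM of 10 transcripts from different tissues in each sample of the control diet (P:C 0.4, blue) and the protein-rich diet (P:C 0.7, red), with the mean and SD of the 3 samples in black. CG3264-RB, CG17234-RA, Hr38-RD, Akh-RA and Lsd-1-RC were lower, and Tsf1-RC, Kr-h1-RA, Hsp70Bb-RA, Lsp2-RB and pim-RA were higher, without overlap between the diets.

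All 32 tested transcripts of the tricarboxylic acid cycle and respiratory chain had a log2 fold change below 0, with a median of -0.39, and 20 of them were lower at an adjusted p under 0.05, against 6.59% of all tested. Only ox-RA, a subunit of respiratory complex III that overlaps mRpL18-RA, also passed the fold minimum, with 92.5, 65.6 and 94.2 CPM in the control samples and 57.6, 49.2 and 57.8 CPM on the 0.7 diet. That is 1 of 32, no larger a share than the 3.82% of all tested transcripts. Of 25 genes of glycolysis, trehalose and glycogen, 1 (4%, near that background) was lower. Gpo-1-RB, the mitochondrial glycerophosphate oxidase, had 281, 209 and 324 CPM against 164, 159.8 and 193 CPM, a log2 fold change of -0.66 (SE 0.15). Neither call was kept without replicate 1 or 3 of the control diet or replicate 1 or 2 of the 0.7 diet, or with library size scaling, and that of ox-RA was also lost with DESeq2.

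Amino acid breakdown gave few calls. Of 15 tested members of its list, 2 (13.3%, against 3.82% of all tested transcripts) fell and 0 rose, with a median of -0.13. These 2 act in folate and urate metabolism, and the other 13 did not pass. Nmdmc-RA, a folate enzyme of one-carbon metabolism that overlaps Mst85C-RB, had 238, 228 and 204 CPM in the control samples and 161, 119.7 and 141 CPM on the 0.7 diet. The urate oxidase Uro-RA, specific to the Malpighian tubule, had 67.2, 63.8 and 68.3 CPM against 48.7, 31.3 and 49.2 CPM. The count ran from 0, without replicate 1 of the control diet or replicate 2 of the 0.7 diet, to 4. None of 16 genes of insulin and TOR signalling was DE with edgeR or DESeq2 (at an unadjusted p under 0.05, 0 lower and 1 higher), and their log2 fold changes lay between -0.27 and 0.21. Pdk1-RD, the most abundant and overlapping CR45805-RA, had a log2 fold change of -0.04 (SE 0.08, adjusted p = 0.725 from edgeR). Of 83 cytoplasmic ribosomal proteins 0 were DE with edgeR or DESeq2 (at an unadjusted p under 0.05, 3 lower and 0 higher), with a median of -0.09, and RpL3-RG, the most abundant and overlapping CR31144-RA, had a log2 fold change of -0.14 (SE 0.08).

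Among detoxification enzymes, 5 of 72 tested transcripts of the cytochrome P450 list (6.94%, against 3.82% of all tested transcripts) fell and 0 rose, with a median of -0.32. The list was matched by symbol and also held Cyp1-RA, which is a cyclophilin and not a P450 enzyme. Cyp4p1-RA, which overlaps hig-RD, had 9.999, 7.54 and 10.2 CPM in the control samples and 4.93, 3.84 and 2.89 CPM on the 0.7 diet, Cyp6a8-RA had 9.74, 20.7 and 18.2 CPM against 8.75, 6.95 and 6.08 CPM, and Cyp4ad1-RA had 15, 18 and 18.96 CPM against 10.2, 8.9 and 10.03 CPM. The count ran from 0, without replicate 3 of the control diet or replicate 1 or 2 of the 0.7 diet, to 16, without replicate 3 of the 0.7 diet. At an adjusted p under 0.05 from edgeR without the fold minimum, 1 member was higher. Higher calls numbered 1 without replicate 2 of the control diet, 2 with library size scaling and 3 with the replicate block. None of 29 glutathione S-transferases was DE with edgeR or DESeq2 (at an unadjusted p under 0.05, 6 lower and 4 higher), with a median of -0.01, and the most abundant, GstD1-RB, had a log2 fold change of 0.23 (SE 0.10, adjusted p = 0.126 from edgeR).

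The Malpighian tubules, the renal organs, held 5 lower transcripts among 10 tested markers (50%, against 3.82% of all tested transcripts) and 0 higher, with a median of -0.64. The organic anion transporter Oatp58Dc-RB had 51.97, 41.9 and 45.5 CPM in the control samples and 20.8, 20.8 and 29.5 CPM on the 0.7 diet, a log2 fold change of -0.96 (SE 0.15, adjusted p = 0.0132 from edgeR). The potassium channel Irk3-RA, which overlaps Grip71-RA, had 47.1, 35.9 and 50.3 CPM against 25.6, 22.3 and 30.6 CPM. Aph-4-RA, the tubule alkaline phosphatase, was at 222, 160.5 and 187 CPM and 118, 105 and 137 CPM, and Uro-RA and the aquaporin Drip-RF were the remaining lower members, the last overlapping another transcript. None of these passed without replicate 1 or 3 of the control diet or replicate 1 of the 0.7 diet, and 7 members did without replicate 2 of the control diet. DESeq2, library size scaling and the fit of all 12 samples called 3 each.

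Of 6 transcripts known to rise with neuronal activity, 3 (50%, against 3.82% of all tested transcripts) fell and 0 rose, with a median of -0.78. Hr38-RD, an orphan nuclear receptor used as an activity marker in insects, which overlaps CG2617-RA, CR44187-RA and CR44188-RA (chromosome 2L, 20683462 to 20714588), had 32.9, 7.26 and 33.3 CPM in the control samples and 3.34, 2.46 and 3.09 CPM on the 0.7 diet. Control replicate 2 lay well below the other control samples but above each sample of the 0.7 diet, and the log2 fold change was -3.08 (SE 0.52, adjusted p = 0.0171 from edgeR). The transcription factor stripe, sr-RD, had 11.6, 6.84 and 12.9 CPM against 4.29, 4.12 and 3.18 CPM, a log2 fold change of -1.45 (SE 0.27, adjusted p = 0.0226 from edgeR). CG13868-RB, which overlaps CR44642-RA, was the remaining lower one of 6 members, with a log2 fold change of -0.68, while kay-RD and Jra-RB, the fly Fos and Jun, which also overlap other transcripts, had log2 fold changes of -0.23 and 0.17 and did not pass. The count of lower members was 0 without replicate 1 or 3 of the control diet or replicate 1 or 2 of the 0.7 diet, and 4 without replicate 2 of the control diet.

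Structural transcripts of neurons were lower with them. Of 39 tested synaptic and neuronal transcripts, 11 (28.2%) fell and 0 rose, with a median of -0.54. The acetylcholine receptor subunit nAChRalpha7-RD had 9.6, 8.65 and 9.36 CPM in the control samples and 5.41, 4.05 and 5.3 CPM on the 0.7 diet. Snap25-RA, a protein of vesicle fusion that overlaps CR45159-RA, had 20.9, 19.5 and 27.7 CPM against 12.6, 13.3 and 12.2 CPM, a log2 fold change of -0.84 (SE 0.16, adjusted p = 0.0227 from edgeR). The microtubule protein futsch-RF had 58.2, 46.05 and 53.6 CPM against 28.5, 24.2 and 38.3 CPM. In the eye, 8 of 28 tested phototransduction transcripts (28.6%) fell and 0 rose, with a median of -0.57. The photoreceptor protein PIP82-RA, which overlaps Nrg-RE, had 18.9, 15.2 and 17.1 CPM against 9.86, 8.9 and 10.9 CPM, the ultraviolet opsin Rh4-RA, which overlaps CG13029-RC, sina-RC and sinah-RC, had 50.7, 36.3 and 49.6 CPM against 27.99, 21.1 and 34.5 CPM, and the G protein subunit Gbeta76C-RA had 54.7, 38.8 and 50.98 CPM against 32.3, 24.02 and 33.1 CPM. Of 7 eye pigment genes, 1 (14.3%) fell. This was the pigment transporter w-RA, which overlaps kirre-RE, with a log2 fold change of -0.83 (SE 0.17). In this list 0 were lower without replicate 1 or 3 of the control diet or replicate 1 or 2 of the 0.7 diet. The neuronal count ran from 0, without replicate 1 of the 0.7 diet, to 21, without replicate 2 of the control diet, and the phototransduction count from 0, without replicate 1 or 3 of the control diet or replicate 1 or 2 of the 0.7 diet, to 16, without replicate 2 of the control diet. DESeq2 called 5 members of each list.

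Among 30 tested neuropeptides and peptide hormones, 3 (10%, against 3.82% of all tested transcripts) fell and 0 rose, with a median of -0.49. Beside Akh-RA these were Nplp1-RA, with 19.6, 19.4 and 24.4 CPM in the control samples and 10.97, 10.2 and 13.8 CPM on the 0.7 diet, and allatostatin C, AstC-RB, with 11.6, 9.49 and 10.9 CPM against 5.09, 7.09 and 6.85 CPM. Neither peptide overlapped between the diets. Without replicate 1 or 3 of the control diet or replicate 1 or 2 of the 0.7 diet no member of the list passed.

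Muscle held the largest share of lower members, 17 of 30 tested sarcomere transcripts (56.7%), with 0 higher and a median of -0.61. The study had drawn attention to muscle genes for another diet set against the same control samples, so that the choice of this list is not independent of them. It ran from 1, without replicate 1 of the 0.7 diet, to 23, without replicate 3 of that diet.

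Structural cuticle proteins, which are deposited mainly around emergence and in the first days of adult life, varied between the control samples. Of 119 in the table, 31 passed the filter on low counts, 6 of these (19.4%) fell and 0 rose, with a median of -0.37 that was 0.00 with DESeq2, which called 1. Cpr92F-RA (chromosome 3R, 20669571 to 20672821) had 24.7, 3.35 and 11.6 CPM in the control samples and 0.477, 0.868 and 0.386 CPM on the 0.7 diet. Control replicate 2 was the lowest control sample, and the log2 fold change of -4.40 (SE 0.73, adjusted p = 0.017 from edgeR), fitted against levels near the limit of detection, passed in 3 of the 6 fits. Cpr47Ea-RA, which overlaps Or47a-RA (chromosome 2R, 11251751 to 11253398), had 4.47, 2.37 and 4.16 CPM against 0.318, 0.507 and 0.868 CPM. Cpr92F-RA and Cpr47Ea-RA passed the filter through their control samples only, so that they could enter the test only as candidates for a lower level. Cpr100A-RA had 5.39, 4.74 and 6.13 CPM against 2.07, 1.23 and 1.35 CPM, a log2 fold change of -1.86 (SE 0.29, adjusted p = 0.0132 from edgeR). Without replicate 3 of the control diet the calls turned to 0 lower and 4 higher, and without replicate 3 of the 0.7 diet 9 were lower and 0 higher. The adult cuticle protein Acp65Aa-RA showed the same order of samples, 12.4, 1.12 and 10.3 CPM against 0.318, 0.434 and 0.193 CPM, but was removed by the filter and not tested. Tweedle proteins of the larval and pupal cuticle, summed over 23 transcripts, were at 4.74 CPM in each of control replicates 1 and 2, at 62.5 CPM in control replicate 3, and between 27.2 and 63.0 CPM on the 0.7 diet. Whether the flies of the diets differed in time since emergence cannot be told apart from diet in this design.

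Of 17 tested pigmentation and sclerotization enzymes, 2 (11.8%, against 3.82% of all tested transcripts) fell and 0 rose, with a median of -0.40. e-RA, which joins dopamine to beta-alanine, had 7.5, 8.23 and 9.94 CPM in the control samples and 4.29, 3.91 and 4.44 CPM on the 0.7 diet, and Ddc-RB, dopa decarboxylase, which overlaps CG10561-RA, had 21.8, 22.3 and 27.98 CPM against 14.8, 13.4 and 17.4 CPM. Without replicate 1 or 3 of the control diet or replicate 1 or 2 of the 0.7 diet 0 were lower, and 5 were lower without replicate 2 of the control diet or replicate 3 of the 0.7 diet.

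In the female reproductive tract, secreted proteases of the sperm storage organs were lower in 3 of 6 tested (50%, against 3.82% of all tested transcripts). All 6 had a log2 fold change below 0, with a median of -0.96. CG17234-RA had 13.02, 5.86 and 8.9 CPM in the control samples and 1.43, 1.81 and 1.74 CPM on the 0.7 diet. Its samples were widely separated, and the log2 fold change of -2.45 (SE 0.33, adjusted p = 0.00892 from edgeR) passed in all 6 fits. Send2-RA (chromosome 2L, 14345915 to 14346688) had 16.8, 1.53 and 14.1 CPM against 0.795, 0.145 and 0.965 CPM, so that control replicate 2 lay close to the 0.7 samples, and its log2 fold change of -4.22 (SE 0.86) passed in 2 of the 6 fits. Send2-RA passed the filter on low counts through its control samples only. CG17239-RB was at 30.9, 16.3 and 26.6 CPM and 11.5, 11.6 and 13.7 CPM. Send1-RA, from the same organs, had 79.1, 73.1 and 64.7 CPM against 70.1, 58.3 and 80.2 CPM, with overlapping samples and a log2 fold change of -0.06 (SE 0.12). The count of lower members was 5 without replicate 2 of the control diet or replicate 3 of the 0.7 diet and 1 without any other sample.

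Ovarian genes lay on both sides of 0. All 20 tested chorion and vitelline membrane genes, which follicle cells switch on late in egg formation, had a log2 fold change below 0, with a median of -0.44, and 1 of them (5%, near the 3.82% of all tested transcripts) fell. This was ndl-RA, a protease of the eggshell that overlaps CG18769-RG, with 221, 136 and 179 CPM in the control samples and 97.8, 102 and 124 CPM on the 0.7 diet. Without replicate 3 of the 0.7 diet 9 eggshell genes were lower, and without replicate 1 or 3 of the control diet or replicate 1 or 2 of the 0.7 diet 0 were. Germline genes lay slightly above 0, with a median of 0.13, and 0 of 21 were DE with edgeR or DESeq2 (at an unadjusted p under 0.05, 0 lower and 7 higher). The most abundant, the yolk receptor yl-RA, had 1848, 1871 and 1672 CPM against 1877, 1967 and 1932 CPM, a log2 fold change of 0.10 (SE 0.07, adjusted p = 0.328 from edgeR).

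All 35 tested mitosis and kinetochore genes had a log2 fold change above 0, with a median of 0.38, although only 2 passed the fold minimum. At an adjusted p under 0.05 without that minimum 13 were higher, against 2.56% of all tested transcripts. The securin pim-RA, which holds back chromosome separation, had 41.3, 46.5 and 40 CPM in the control samples and 63.8, 82.7 and 61.2 CPM on the 0.7 diet, a log2 fold change of 0.71 (SE 0.13, adjusted p = 0.0198 from edgeR). The kinetochore protein Spc25-RA, which overlaps grsm-RF, had 18.4, 22.9 and 14.9 CPM against 30.4, 34.9 and 25.7 CPM. Further division genes outside the list, noticed among the called transcripts, were the centromere histone cid-RA, the cytokinesis regulator tum-RA, the spindle tubulin gammaTub23C-RA and the centriole protein Sas-4-RA, with log2 fold changes of 0.61, 0.59, 0.62 and 0.59. The number of called members ran from 0, without replicate 1 or 3 of the control diet or replicate 1 or 2 of the 0.7 diet, to 9, without replicate 2 of the control diet. The summed level of the mitosis list was 6080 to 7073 CPM on the control diet and 7320 to 9025 CPM on the 0.7 diet, and that of the germline list 6019 to 6476 and 6597 to 7088 CPM. CPM values are shares of a library, and the part of a larger ovarian share of RNA in the lower level of other tissues was not tested.

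Of 21 tested heat shock proteins, 6 (28.6%, against 0.577% of all tested transcripts) rose and 1 (4.76%, near the 3.82% of all tested) fell, with a median of 1.0. Of the 6 higher members, 5 were Hsp70 copies, which are near-identical, so that reads may have been shared between them and they are read here as 1 gene. The share of 28.6% and the median count each copy separately and are raised by this. Hsp70Bb-RA (chromosome 3R, 12505793 to 12508139) had 35, 52.9 and 30.2 CPM in the control samples and 67.8, 128 and 168 CPM on the 0.7 diet, a log2 fold change of 1.64 (SE 0.30, adjusted p = 0.0223 from edgeR). The 2 copies with the largest fold changes were less abundant: Hsp70Aa-RA (chromosome 3R, 11954163 to 11956544) had 0.263, 2.65 and 1.39 CPM against 3.5, 10.1 and 13.99 CPM and Hsp70Ab-RA, which overlaps CG3281-RA, had 4.47, 17.3 and 5.78 CPM against 18.1, 31.4 and 51.02 CPM. In both, control replicate 2 and replicate 1 of the 0.7 diet lay close to each other. The co-chaperone DnaJ-1-RA rose by a log2 fold change of 1.0 (SE 0.26), the small heat shock protein l(2)efl-RC, which overlaps St3-RC, fell by 0.72 (SE 0.11), and the abundant Hsp83-RB, which overlaps CG14966-RA, had 3521, 4273 and 3447 CPM against 4105, 4142 and 4324 CPM and did not pass. The number of higher members ran from 0, without replicate 1 or 3 of the control diet or replicate 2 of the 0.7 diet, to 10, without replicate 2 of the control diet. In the fit of all 12 samples 0 were higher, and with DESeq2 4 were. Kr-h1-RA, a zinc finger factor that responds to juvenile hormone and was named after its values were seen, followed a like order of samples, with 27.1, 59.9 and 29.8 CPM against 71.1, 89.7 and 98.4 CPM and a log2 fold change of 1.16 (SE 0.26, adjusted p = 0.0347 from edgeR).

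Further transcripts with large changes belonged to none of these groups. Tpc2-RB, a mitochondrial carrier of thiamine pyrophosphate that overlaps NaCP60E-RP (chromosome 2R, 24897902 to 24900734), showed the largest rise, with 2.11, 5.3 and 0.809 CPM in the control samples and 24.2, 9.99 and 28.5 CPM on the 0.7 diet. Its log2 fold change was 2.95 (SE 0.55, adjusted p = 0.0226 from edgeR), with a pass in 3 of the 6 fits. CG11741-RA (chromosome 3R, 8528423 to 8528877) had 0.921, 1.81 and 0.809 CPM against 3.5, 4.85 and 5.69 CPM. This transcript passed the filter on low counts through its samples of the 0.7 diet, so that it could enter the test only as a candidate for a higher level. Lower was dila-RC, a centrosomal protein needed for cilia (chromosome 2R, 9823082 to 9827206), with 6.32, 1.4 and 12.8 CPM against 0.477, 0.289 and 0.193 CPM, the latter at about the limit of detection, and a pass in 2 of the 6 fits. It passed the filter on low counts through its control samples only. Beside Jon65Aiv-RA, the most abundant lower transcripts were CG32816-RE and oys-RE. CG32816-RE (chromosome X, 316576 to 470726) spans the achaete-scute region and overlaps 11 other transcripts, and oys-RE, an acyltransferase of phospholipids (chromosome 2R, 10034595 to 10048619), overlaps the respiratory chain subunit CoVIIc-RC among others, so that neither count can be assigned to one gene. Their log2 fold changes were -0.74 (SE 0.18) and -0.77 (SE 0.11).

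The 32 lower transcripts that passed in all 6 fits with a sample left out were spread over several lists. Serine proteases gave 4 of them, exopeptidases 3, and lipases, peritrophins, sarcomere proteins and sperm storage proteases 1 each. Another 21 were in none of the fixed lists, 2 of them alkaline phosphatases and 1 a lysosomal mannosidase. Of these, CG43402-RB had 21.7, 20.7 and 22.1 CPM in the control samples and 8.27, 7.74 and 8.2 CPM on the 0.7 diet, a log2 fold change of -1.42 (SE 0.13, adjusted p = 0.00209 from edgeR). Ag5r2-RA, a secreted antigen 5-related protein, had 79.7, 78.3 and 75.7 CPM against 42.5, 44.1 and 40.99 CPM, and CG4562-RC (RefSeq symbol Mrp5), a transporter of the ABC class that overlaps another transcript, had 182, 188 and 202 CPM against 114, 120.0 and 112 CPM. None of these 3 overlapped between the diets. The transcripts of this paragraph were named after their values were seen.

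Set beside the other diets of the series, on a CPM scale fitted over all 12 samples, the called transcripts showed unlike courses. These values share their samples with the comparison above and are given as a description. CG31233-RB had 288 ± 20.9, 325 ± 25.1, 259 ± 13.3 and 169 ± 12.8 CPM (SD, n = 3 samples each) from the lowest to the highest P:C ratio (0.25, the control at 0.4, then 0.55 and finally 0.7), so that its lowest level was that of the 0.7 diet. For tobi-RA the same order gave 89.2 ± 8.22, 103 ± 36.2, 234 ± 47.5 and 321 ± 68.97 CPM. The maltase Mal-A1-RA had 83.5 ± 43.5, 109.9 ± 27.1, 220.1 ± 41.5 and 236 ± 76.5 CPM and Tsf1-RC had 130.5 ± 27.6, 176 ± 60.5, 547 ± 219.7 and 478 ± 140.3 CPM, and in both the step lay between 0.4 and 0.55, with the means at 0.55 and 0.7 closer to each other than their SD. CG9463-RB peaked on the intermediate diet, with 9.57 ± 3.3, 6.66 ± 2.59, 37.8 ± 6.54 and 16.7 ± 2.63 CPM. The alkaline phosphatase CG3264-RB had 119 ± 8.75, 12.6 ± 6.07, 11.5 ± 7.16 and 0.308 ± 0.287 CPM, with one step below and another above the middle diets.

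**Figure D5:**
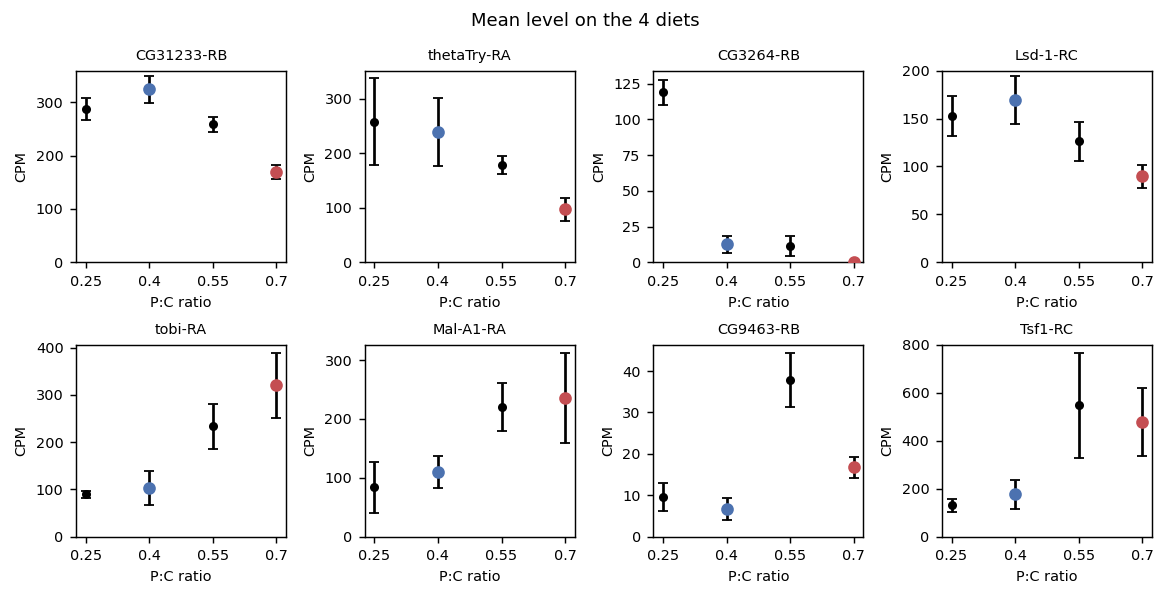
Mean CPM with SD (n = 3 samples) of 8 transcripts on the 4 diets, plotted against the P:C ratio, with the control diet in blue and the 0.7 diet in red. The top row holds transcripts that were lower and the bottom row transcripts that were higher at 0.7 than at 0.4, and CG9463-RB is highest at 0.55.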

How the data were processed

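Transcript abundance was measured by polyA-selected RNA-seq of whole females. Per the labels and the study's methods, the authors trimmed reads with Trim Galore, aligned them with HISAT2 to BDGP6 (dm6) and deposited raw counts per transcript from Seqmonk. Use of strand is not given in the sources used here. Samples were grouped by the diet in their labels. Each of the 6 samples pooled 12 flies, and summed to 6094226 to 13245114 counts, at which 3 counts are 0.217 to 0.477 CPM. The members and lists were chosen with earlier results of these data known, and 4 families (alkaline phosphatases, lysosomal mannosidases, Bomanins, Tweedle proteins) were added after values were seen.

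The raw counts as deposited were filtered with filterByExpr, scaled with TMM and tested with edgeR's quasi-likelihood test (edgeR 4.0.16, R 4.3.3) on the 6 samples, with Benjamini-Hochberg adjustment over all 9705 transcripts. DE means an adjusted p under 0.05 and more than 1.5-fold. Alternatives were DESeq2 1.42.0, the tool the study names, with fold changes shrunken by apeglm 1.24.0, DESeq2 size factors, library size alone, other filters, no fold minimum, all 12 samples, a replicate block and each sample left out. The code was tested on simulated data. The text names the 6 lower and 6 higher DE transcripts of largest change without overlap between diets, up to 3 DE members of each list (or its most abundant member), and the 3 most abundant of each direction, with muscle and fatty-acyl-CoA members named only by size of change or abundance. Other transcripts are named as remaining list members or after their values were seen. Coordinates are those deposited with the counts. RefSeq symbols are added where they differ. The other diets entered only the all-sample fit and the closing description. No values from the authors' own comparisons were used.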

Additional observations from a re-analysis of the deposited data

How the results depend on the processing

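With each sample left out, between 43 and 709 transcripts were lower and between 3 and 153 were higher, against 371 and 56 with all 6 samples. DESeq2 gave 242 lower and 32 higher. The fit of all 12 samples gave 344 and 30, scaling by library size alone 302 and 109, and removal of the fold minimum 640 and 248. Both of the last changes together gave 616 and 635, so that the share that was higher was 50.8% instead of 13.1%. Library size scaling moved the median of all transcripts to 0.07 on the log2 scale, and the cause of the other shifts was not tested. DESeq2 size factors and the filters kept both counts within 1.5 times. The replicate numbers were not shown to pair the samples: the correlation of deviations was -0.02, 0.24 and 0.18 for the same numbers, and not every sample correlated best with its own number. A fit with the replicate number as a block gave 582 lower and 82 higher transcripts.

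Of 86 named transcripts with a fit, 16 lost the call with DESeq2, 17 with all 12 samples and 3 with library size alone, and 66, 2 and 67 without control replicates 1, 2 and 3, or 71, 57 and 5 without replicates 1, 2 and 3 of the 0.7 diet. Pdk1-RD, not called in any fit, went from -0.0426 to 0.0292 with library size alone, with or without the fold minimum, and ran from -0.103, without replicate 2 of the 0.7 diet, to 0.0149, without control replicate 1. Medians of lists changed sign in 0 to 3 lists per setting, and that of the cuticle list, -0.37, was 0.00 with DESeq2. Low counts limit CG3264-RB, dila-RC and Cpr92F-RA, whose size of change is imprecise. These, like Cpr47Ea-RA and Send2-RA, passed the filter through their control samples only. CG11741-RA, which was higher, passed it through its samples of the 0.7 diet.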

Other observations

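Some called genes belonged to no comparison above. Sodh-1-RA, a sorbitol dehydrogenase, had 83.7, 72.6 and 94.1 CPM in the control samples and 134, 116 and 142 CPM on the 0.7 diet, a log2 fold change of 0.64 (adjusted p = 0.0169 from edgeR). The odorant-binding protein Obp99a-RB had 141, 119 and 164 CPM against 219, 196 and 278 CPM, a log2 fold change of 0.71 (adjusted p = 0.0272 from edgeR). The diets did not overlap for either gene. Among 12 Bomanins, immune peptides grouped after their values had been seen, all 12 had a log2 fold change below 0, with a median of -0.48, and 2 (16.7%) were lower. IM1-RA, IM2-RA, IM3-RB and IM23-RA also belong to the list of antimicrobial peptides above, so that the call of IM3-RB is counted in both. Without control replicate 1, the sample with the high attacin levels, the median was -0.28. The count of lower members was 0 without that sample, without control replicate 3 or without replicate 1 or 2 of the 0.7 diet, and 5 without control replicate 2.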
